A study of Mus musculus with 7 samples.

Results

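Dpep1 cells were the stromal cells of the mouse mesenteric lymph node (mLN) that carried Dpep1 transcripts without the marks of the neighbouring populations. A cell counted as a member when it held no Pecam1, at least 1 Col1a2, at least 2 Dpep1, at most 1 Pi16, at most 2 Ccl19 and fewer than 3 summed Msln, Upk3b, Upk1b, Lrrn4 and Krt19 unique molecular identifiers (UMIs, each standing for 1 captured transcript). By that rule 630 of 13197 cells that passed the filters on detected genes (1000 to 4600) and on mitochondrial UMIs (at most 4.5%) were Dpep1 cells, out of 17692 cells in the deposited matrix. They comprised 23 cells of day 0 (D0), 71 of D10, 132 of D24, 251 of D56 and 153 of D300. The rule read the counts of the same cells, so the levels of its genes, and of Cd34, which defines the comparison cells, are given as a description and carry no test. Of the 2004 kept cells with at least 2 Dpep1 UMIs, 1004 also held at least 2 Pi16 UMIs, 314 held at least 3 Ccl19 UMIs, 205 held Pecam1, 109 held no Col1a2 and 4 held at least 3 mesothelial UMIs, and a cell could fail several limits.

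The study followed the postnatal development of mLN stromal cells by droplet single-cell RNA-seq. Nodes of BALB/c mice housed under specific pathogen free (SPF) conditions were digested with collagenase P, dispase and DNase I, depleted of CD45+ cells and sorted for CD45-CD24- cells. The ages were D0 (newborn), D10, D24, D56 (adult) and D300 (old), with no treatment and no genetic change compared among them. The labels list 7 samples, with 2 libraries for D56, 2 for D300 and 1 for each younger age, but the cell names carry the age only, so that each age entered as 1 sample. Differences between ages therefore have no replicate check, and age and library cannot be told apart. The number of animals behind a library is not given in the sources used here.

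CD34+ stromal cells lie around the larger vessels and in the capsule region of lymph nodes, outside the network of reticular cells that makes Ccl19 and Ccl21a and guides T cells. Pi16 (peptidase inhibitor 16) and Dpp4 mark the better known CD34+ population, which resembles the adventitial progenitor-like fibroblasts of many organs. Dpep1 is a membrane-anchored dipeptidase that removes glycine from a cysteinyl leukotriene, the step after the one carried out by Ggt5. Aldh1a2 is a retinal dehydrogenase that makes retinoic acid, the vitamin A derivative through which gut-draining nodes imprint lymphocytes, and Adh1 can carry out the oxidation of retinol before it. Gsn (gelsolin) severs actin filaments, and Mnda belongs to the Ifi200 family of interferon-inducible nuclear proteins, whose near-identical members can share reads, so that its level is uncertain. In the mouse build mm10, with positions from GENCODE vM21, Dpep1 lies on chromosome 8, 123186242 to 123201812, plus strand, and Aldh1a2 on chromosome 9, 71215789 to 71296243, plus strand. Gsn lies on chromosome 2, 35256380 to 35307892, plus strand.

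Depth differed with age. The Dpep1 cells held 193768, 473811, 919156, 1620149 and 711269 UMIs in all, in age order, with medians of 8403, 6746, 6901, 6035 and 4623 UMIs and 2830, 2460, 2378.5, 2172 and 1640 genes per cell. Levels are in CPM (UMIs of a gene in the summed cells of an age, scaled by all their UMIs to the same total), and the intervals in parentheses or brackets are exact 95% Poisson or binomial intervals, which cover counting error only. At D10 the kept cells were of mixed sex, with Xist in 20.996% and Y-linked transcripts in 46.2% of them, and Y-linked transcripts were in 29.6% of the Dpep1 cells of that age and in 0 of those of the other ages. Transcripts of pancreatic acinar cells summed to 1125, 8.44, 1125, 1.23 and 0 CPM in Dpep1 cells and to 1042, 8.59, 843, 1.201 and 0 CPM in Pi16 cells, so that they were highest at D0 and D24 and at a similar level in both populations. Haemoglobin and Alas2 transcripts summed to 4.22 to 5.16 CPM up to D56 and to 104 CPM at D300. No doublet caller was run. Cell names are an age and a running number, so that barcodes shared by libraries could not be counted. Leaving out the 5% of cells with the most UMIs changed the count of genes separating Dpep1 from Pi16 cells from 421 to 422, with 377 of the 421 shared.

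The label genes Aldh1a2, Gsn and Mnda were each highest at D56. Aldh1a2 measured 10.3 CPM (D0), 12.7 (D10), 89.2 (D24), 156 (D56) and 25.3 (D300) in Dpep1 cells, against 4.28, 11.4, 51.6, 21.2 and 24.03 CPM in Pi16 cells, where Pi16 cells are the comparison population defined by no Pecam1, at least 1 Cd34, at least 2 Pi16 and at most 1 Dpep1 UMI (848, 89, 173, 379 and 32 cells in age order). At D24 and D56 the Aldh1a2 level of Dpep1 cells lay above that of Pi16 cells, at log2 ratios of 0.79 (0.33 to 1.25) and 2.87 (2.44 to 3.33), whereas at the other ages the intervals of the ratio included 0. An Aldh1a2 UMI was found in 8.696, 4.23, 20.5, 29.9 and 7.84% of the Dpep1 cells in age order and in 3.18, 6.74, 24.3, 7.92 and 6.25% of the Pi16 cells. Ccl19-high reticular cells, taken as the background for this gene, gave 0.554, 0, 1.49, 1.17 and 0.373%, at median depths of 9265, 8302, 7616, 6696 and 5553 UMIs. With every cell thinned to 2000 UMIs the Dpep1 cells gave 4.35, 2.82, 10.6, 16.3 and 3.95%, so that the order of the ages did not change at its top, where D56 stayed above D24.

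Gsn measured 3359.7 CPM (D0), 6357 (D10), 13537 (D24), 39769 (D56) and 21227 (D300) in Dpep1 cells, against 3118, 7944, 8613, 21745 and 18325 CPM in Pi16 cells. It was above the Pi16 cells at D24, D56 and D300, at log2 ratios of 0.65 (0.62 to 0.69), 0.87 (0.85 to 0.89) and 0.21 (0.16 to 0.27), below them at D10, at -0.32 (-0.39 to -0.26), and the D0 interval included 0. Every Dpep1 cell held a Gsn UMI. Endothelial cells (at least 2 Pecam1 and no Col1a2 UMI) held one in 52.5, 41.4, 81.95, 95.1 and 82.97% of cells, and in 19.7, 20.7, 48.5, 79.5 and 59.6% after thinning to 2000 UMIs, so that their share too was highest at D56. Mnda measured 10.3 CPM (D0), 25.3 (D10), 84.9 (D24), 317 (D56) and 103 (D300) in Dpep1 cells, against 3.18, 18.6, 68.8, 146 and 132 CPM in Pi16 cells. The Mnda ratio stood clear of 0 at D56 alone, at 1.12 (0.92 to 1.31) on the log2 scale, and was -0.36 (-1.07 to 0.39) at D300. Cd34 was detected in 100, 81.7, 78.03, 80.5 and 42.5% of the Dpep1 cells, and in 78.3, 64.8, 47.7, 50.6 and 29.6% after thinning, beside 37.4, 29.8, 30.3, 36.4 and 22.8% of the Ccl19-high cells, and the share was lowest at D300. Of the label, Aldh1a2 was thus above the Pi16 cells at D24 and D56, Cd34 was most frequent at D0, and the population is called by its gate, Dpep1 cells.

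**Figure D1:**
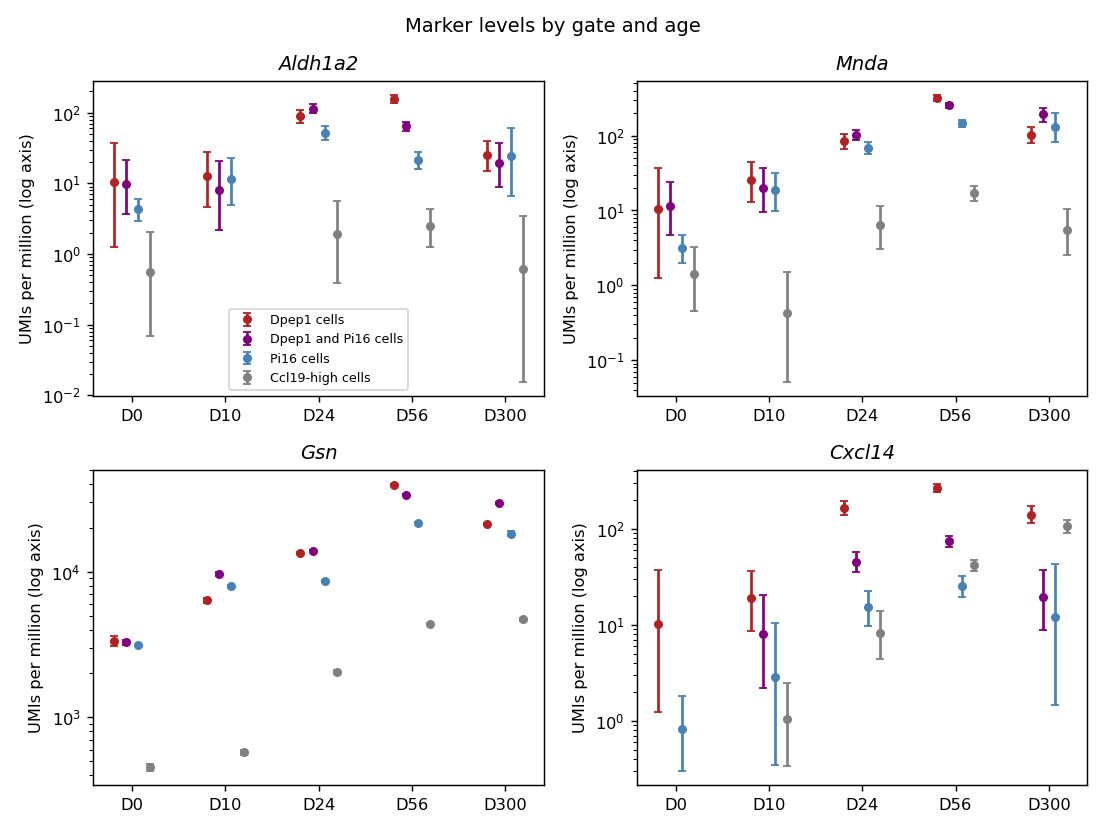
Levels of Aldh1a2, Mnda, Gsn and Cxcl14 in CPM (log axis) at the 5 ages in Dpep1 cells, Pi16 cells, cells with at least 2 UMIs of both genes, and Ccl19-high cells; points are summed levels and bars exact 95% Poisson intervals. Aldh1a2 in Dpep1 cells ran from 10.3 CPM at D0 to 156 CPM at D56, while Ccl19-high cells stayed at or below 2.45 CPM.

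Markers of other cell types that a CD45-CD24- sort could hold were summed over their lists. Adjacent-tissue fibroblast genes (6 genes with Mfap4, Sfrp1 and Igf2) gave 4237, 1749.6, 257, 176 and 111 CPM in Dpep1 cells, beside 3949.5, 2109, 749, 111 and 54.1 CPM in Pi16 cells, so that both populations held them mainly at D0 and D10. Reticular genes (10 genes with Ccl21a, Inmt and Cxcl12) gave 1657, 6538, 10382, 9958 and 19478 CPM in Dpep1 cells and 2099, 2397, 3606, 18736.5 and 6024 CPM in Pi16 cells. The reticular sum of Dpep1 cells was thus the larger one at D10, D24 and D300 and the smaller one at D0 and D56, and its part in the results below was not tested. The list includes Ccl19, which the rule limits in Dpep1 cells but not in Pi16 cells and which measured 41.3, 73.9, 51.1, 115 and 119.5 CPM and 64.8, 68.7, 52.9, 804 and 96.1 CPM, so that the order at each age is the same without it. Mesothelial genes reached at most 15.2 CPM in Dpep1 cells and up to 1039.7 CPM in Pi16 cells, whose definition set no mesothelial limit. Endothelial genes (8, with Pecam1 at 0 by definition) summed to 54.3 to 68.9 CPM, mural genes to 268 to 489.6 CPM, blood cell genes to 25.8 to 139 CPM with Ptprc at 0 at every age, Schwann cell genes to 11.2 to 30.96 CPM and epithelial genes to at most 2.18 CPM.

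Dpep1 cells made up a larger share of the stromal cells from D24 on than at D0 and D10. Among cells with no Pecam1 and at least 1 Col1a2 UMI (3144, 1432, 997, 2438 and 924 in age order) their share was 0.732% (0.464 to 1.096) for D0, 4.96% (3.89 to 6.21) for D10, 13.2% (11.2 to 15.5) for D24, 10.3% (9.12 to 11.6) for D56 and 16.6% (14.2 to 19.1) for D300. The intervals of D0 and D10 overlapped with no other age, and the D24 interval overlapped with those of D56 and D300. Thinning every cell to 2000 UMIs before gating gave 0.306%, 1.61%, 6.62%, 10.03% and 13.5%, where the D56 share lay above the D24 share. Dpep1 cells that also held Cd34 were 0.732%, 4.05%, 10.3%, 8.29% and 7.03% of stromal cells, an order in which D300 was no longer the highest age. Of all kept cells, Dpep1 cells were 0.619, 3.61, 7.68, 6.82 and 7.23% in age order, where D24 and not D300 was the highest age. At D300, 97 of the 410 kept cells with at least 2 Dpep1 UMIs held no Col1a2, against 10 of 967 at D56. Of the Dpep1 and Pi16 cells together, Dpep1 cells were 2.64, 44.4, 43.3, 39.8 and 82.7% in age order. A Dpep1 UMI was also found in 0, 1.01, 6.80, 7.94 and 6.34% of endothelial cells in age order, and in 0, 0, 3.55, 3.10 and 4.26% after thinning. Ccl19-high cells, limited to 1 Dpep1 UMI, gave 3.32, 12.3, 26.4, 25.7 and 22.8%. This background was thus also higher from D24 on than at D0 and D10, and its part in the shares was not tested. A dissociated and sorted suspension gives shares of the cells recovered, not of the tissue.

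**Figure D2:**
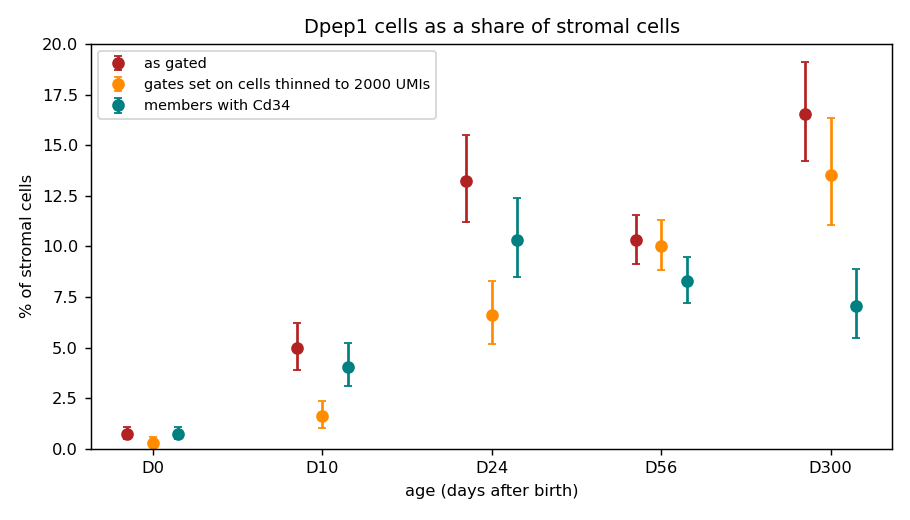
Dpep1 cells as a percentage of stromal cells at each age, as gated, after thinning to 2000 UMIs, and counting those with Cd34; bars are exact 95% binomial intervals. The gated share ran from 0.732% at D0 to 16.6% at D300, and the share with Cd34 was highest at D24, at 10.3%.

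Dpep1 cells held more Cxcl14, G0s2, Steap4 and Adh1 and less Tnfrsf11b, Krtdap and Dpp4 than Pi16 cells. The comparison summed UMIs per age and population and was fitted with edgeR's quasi-likelihood test with age as a block, since both populations of an age came from the same sample. Of 7248 genes tested outside the rule genes, 421 (5.81%) passed an adjusted p of 0.05, 217 (2.99%) higher and 204 (2.81%) lower in Dpep1 cells, and 316 of them lay on the same side in all 5 ages. The median log2 fold change over all genes was 0.01. Without the label genes and the genes the study had listed for its clusters of the same cells, 317 of 7032 genes passed, 184 higher and 133 lower. The populations were defined on these cells, so that a count is a description and depends also on the number of cells and UMIs. Of the 20 named genes, Cxcl14, G0s2, Spry1, Krtdap, Efhd1, Sbsn, Dpp4 and Tmem100 are in those lists and lend no independent support. Without D24 the count was 224, without D56 it was 209, and without D10 it was 265. Without the age block 31 genes passed.

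Cxcl14, a chemokine of tissue fibroblasts on chromosome 13, 56288643 to 56296551, minus strand, had the largest fold on the higher side among the genes eligible to be named. It measured 10.3 CPM (D0), 18.99 (D10), 165 (D24), 265 (D56) and 141 (D300) in Dpep1 cells, against 0.829, 2.86, 15.3, 25.2 and 12.01 CPM in Pi16 cells. Its level was higher in Dpep1 cells at all 5 ages, with a log2 fold change of 3.397 ± 0.17 (SE) and an edgeR adjusted p of 7.65e-07. The next was G0s2, an inhibitor of the lipase that releases fat from droplets, with 36.1 CPM (D0), 120.3 (D10), 213 (D24), 309 (D56) and 111 (D300) in Dpep1 cells, against 23.2, 32.9, 24.2, 35.2 and 6.01 CPM in Pi16 cells. Its level was again on the higher side at every age, with a log2 fold change of 2.58 ± 0.299 (SE) and an edgeR adjusted p of 4.37e-04. Steap4, a metalloreductase, measured 20.6 CPM (D0), 333 (D10), 460.2 (D24), 454 (D56) and 306 (D300) in Dpep1 cells, against 15.5, 80.1, 75.8, 125 and 66.1 CPM in Pi16 cells (log2 fold change 2.06, SE 0.21, edgeR adjusted p = 1.79e-04). Adh1, the retinol-oxidising alcohol dehydrogenase on chromosome 3, 138260991 to 138290698, plus strand, measured 30.96 CPM (D0), 67.5 (D10), 82.7 (D24), 133 (D56) and 105 (D300) in Dpep1 cells, against 18.2, 17.2, 24.8, 33.6 and 18.02 CPM in Pi16 cells. Adh1 was higher at each age, from D0 to D300, with a log2 fold change of 1.81 ± 0.19 (SE) and an edgeR adjusted p of 2.14e-04.

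Other genes named on the higher side were Gnai1 (an inhibitory G protein subunit, 2.25), Plk4 (a centriole duplication kinase, 2.25), Inmt (a methyltransferase, 2.14), Sept4 (a septin, 2.09), Rgs16 (a regulator of G protein signalling, 2.05), Spry1 (an antagonist of fibroblast growth factor signalling, 2.01) and Vtn (vitronectin, 1.85), all as fitted log2 fold changes, with edgeR adjusted p from 6.39e-04 to 0.0131. Plk4 measured 243 CPM (D0), 46.4 (D10), 45.7 (D24), 10.5 (D56) and 19.7 (D300) in Dpep1 cells, against 33.98, 4.29, 7.64, 10.01 and 0 CPM in Pi16 cells, so that it was higher by more than 2-fold at D0, D10 and D24 and close to the Pi16 cells at D56. At D300 the Pi16 cells held no Plk4 UMI, which there allows up to 18.02 CPM. Inmt measured 15.5 CPM (D0), 249 (D10), 542 (D24), 910.4 (D56) and 3228 (D300) in Dpep1 cells, against 11.6, 44.4, 26.1, 367 and 1183 CPM in Pi16 cells. Both populations had their highest Inmt level at D300, and Dpep1 cells were on the higher side at each age. At D56 the level was higher in members with few Dpep1 UMIs, at 2141 CPM with 2 and 2224 CPM with 3 against 99.7 CPM with 10 or more. An Inmt UMI was found in 8.696, 45.1, 42.4, 55.8 and 94.1% of Dpep1 cells and in 0, 4.04, 5.92, 24.6 and 41.2% of endothelial cells, whose share rose with age too. Plk4 did not pass with at least 1 Dpep1 UMI as the limit (adjusted p = 0.21), Rgs16 did not with at least 3 (0.116), and Vtn did not with Cd34 required in neither population (0.103).

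The reticular cells gave a second reference for these genes. Against Ccl19-high cells, Cxcl14 (2.23), Plk4 (1.86), Spry1 (1.76), G0s2 (1.32), Inmt (1.11) and Adh1 (0.58) were again higher in Dpep1 cells as log2 fold changes, with edgeR adjusted p up to 0.0468. Gnai1, Sept4, Steap4 and Rgs16 gave 0.201, -0.22, -0.27 and -0.39 there and did not pass the test. Vtn was lower in Dpep1 cells than in Ccl19-high cells, at -1.82 ± 0.24 (SE) and an adjusted p of 1.75e-04.

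On the lower side, Dpep1 cells held less of genes that are typical of the Pi16 cells. Tnfrsf11b (osteoprotegerin, the decoy receptor of RANKL, on chromosome 15, 54250619 to 54278484, minus strand) measured 10.3 CPM (D0), 6.33 (D10), 3.26 (D24), 3.09 (D56) and 0 (D300) in Dpep1 cells, against 32.3, 68.7, 202, 105 and 114 CPM in Pi16 cells. At every age it was lower in Dpep1 cells, with a log2 fold change of -5.07 ± 0.39 (SE) and an edgeR adjusted p of 2.94e-05. Dpp4, a cell surface peptidase known as CD26, measured 20.6 CPM (D0), 10.6 (D10), 13.1 (D24), 12.96 (D56) and 12.7 (D300) in Dpep1 cells, against 42.7, 94.4, 83.5, 107 and 156 CPM in Pi16 cells (log2 fold change -2.91, SE 0.24, edgeR adjusted p = 3.77e-05). The ranges of Dpp4 over the ages did not overlap between the populations. Krtdap (-4.52) and Sbsn (-3.83), both first described in keratinocytes, Efhd1, a mitochondrial calcium-binding protein (-3.86), Angptl1, an angiopoietin-like secreted protein (-3.27), Tubb2b, a beta tubulin (-2.88), and Tmem100, a membrane protein of the BMP pathway (-2.74), were lower at all ages, with edgeR adjusted p from 1.25e-06 to 4.68e-04. All 7 markers of Pi16 cells that could be tested (Cd248, Dpp4, Anxa3, Ly6c1, Ackr3, Sema3c and Ly6a) were lower, with a median log2 fold change of -2.03. Pi16 separates the populations by definition, so that lower levels of its companion markers describe the definition and lend no independent support. The rule genes themselves stood at a mean of 827 CPM Dpep1 in Dpep1 cells against 50.03 CPM, and at 50.4 CPM Pi16 against 1744 CPM.

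**Figure D3:**
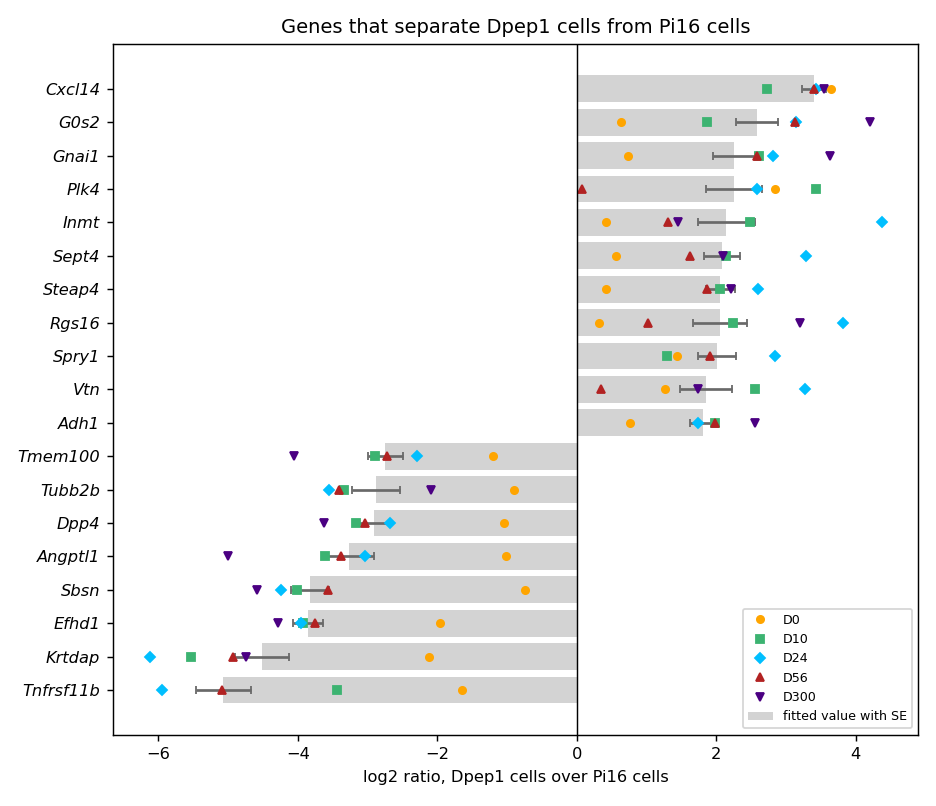
Log2 ratio of Dpep1 to Pi16 cells for 19 of the 20 named genes; bars are the fitted log2 fold changes with their standard errors over 5 ages and points the ratio at each age, with no D300 point for Plk4, Spry1 and Tnfrsf11b, where 1 population held no UMI. Cxcl14 was the highest at 3.397 and Tnfrsf11b the lowest at -5.07, and the D56 point of Plk4 lay at 0.07.

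In the retinoic acid pathway, 14 of 23 listed genes could be tested, of which 3 were higher (Adh1, Aldh1a2 and the orphan nuclear receptor Nr2f2, 0.57) and 2 lower (the retinol dehydrogenase Rdh10, -0.798, and Aldh1a3, a second retinal dehydrogenase, -1.79), with a median log2 fold change of 0.14 beside 0.01 over all genes. Aldh1a2, which is a label gene and adds no independent support, gave a log2 fold change of 1.61 ± 0.36 (SE) and an edgeR adjusted p of 0.0224. That call did not pass with DESeq2 (adjusted p = 0.14), without D56 (0.27), with at least 1 Dpep1 UMI (0.138), with Cd34 required in neither population (0.0633), without the filter on cells (0.0507) or without the age block (0.647). Gsn and Mnda did not pass, at 0.33 (adjusted p = 0.416) and 0.58 (0.163), although Mnda did with Cd34 required in both populations (0.82, adjusted p = 0.0107, edgeR). The retinoid receptors gave log2 fold changes of 0.18 (Rara), 0.104 (Rarg) and 0.19 (Rxra), which did not pass.

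Among the 13 tested genes of leukotriene and prostanoid metabolism, 3 were higher and 2 lower, with a median of -0.02. Ggt5, the glutamyl transferase that acts just before Dpep1 on cysteinyl leukotrienes and lies on chromosome 10, 75589340 to 75617200, plus strand, measured 15.5 CPM (D0), 61.2 (D10), 114 (D24), 225 (D56) and 259 (D300) in Dpep1 cells, against 21.3, 24.3, 43.96, 54.1 and 72.1 CPM in Pi16 cells. Its level was on the higher side from D10 on and on the lower side at D0, with a log2 fold change of 1.55 ± 0.22 (SE) and an edgeR adjusted p of 0.00168. The prostacyclin receptor Ptgir (1.79) and the prostaglandin E receptor Ptger4 (0.63) were also higher, whereas the cyclooxygenase Ptgs1 (-2.62) and the prostacyclin synthase Ptgis (-1.64) were lower. Ptgs1 measured 0 CPM (D0), 12.7 (D10), 14.1 (D24), 12.3 (D56) and 37.96 (D300) in Dpep1 cells, against 18.2, 51.5, 83.5, 121 and 156 CPM in Pi16 cells. Ltc4s, the enzyme that forms the first cysteinyl leukotriene, gave 0.403 and an adjusted p of 0.605 with edgeR.

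Of 16 tested basement membrane genes, 4 were higher (Col4a1 0.89, Col4a2 1.01, Col15a1 1.65 and Vwa1 1.76) and Fn1 (fibronectin) was lower (-1.31), with a median of 0.25. Col15a1, a collagen of the zone between basement membrane and interstitium on chromosome 4, 47208161 to 47313167, plus strand, measured 160 CPM (D0), 308 (D10), 347 (D24), 378 (D56) and 54.8 (D300) in Dpep1 cells, against 95.03, 136, 129, 55.7 and 6.01 CPM in Pi16 cells. Its level was higher at each age, with a log2 fold change of 1.65 ± 0.25 (SE) and an edgeR adjusted p of 0.00266. Of 39 interstitial matrix genes, 2 were higher (Emilin1 0.903 and Vtn) and 8 lower, with a median of -0.12. The lower ones included Mfap5 (-1.68), Fbn1 (-1.66), Efemp1 (-1.27), Eln (-1.25) and the procollagen C-proteinase enhancer Pcolce2 (-1.46).

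Growth factors and modulators of the BMP and WNT pathways gave 10 higher and 8 lower genes of 39 tested, with a median of 0.24. Higher were the FGF antagonist Spry1, the growth factor Fgf10 (1.52), the WNT enhancer Rspo3 and the IGF-binding Igfbp3 (1.404), with Gdf10, Fgf7, Bmp4, Bmper, Igfbp7 and Pdgfrb. Lower were Wnt2 (-3.69), the WNT antagonist Sfrp4 (-2.46), Igfbp5 (-1.97) and Igfbp6 (-1.85), with Sfrp2, Fgf2, Tgfb2 and Fstl1. Wnt2 measured 5.16 CPM (D0), 0 (D10), 0 (D24), 3.703 (D56) and 0 (D300) in Dpep1 cells, against 18.1, 22.9, 28.03, 26.03 and 18.02 CPM in Pi16 cells. At D10, D24 and D300 no UMI was found in Dpep1 cells, which allows up to 6.33, 3.26 and 4.22 CPM. Gdf10, a TGF-beta family ligand, measured 279 CPM (D0), 585 (D10), 343 (D24), 285 (D56) and 357 (D300) in Dpep1 cells, against 200.1, 265, 124, 83.3 and 252 CPM in Pi16 cells (log2 fold change 1.14, SE 0.18, edgeR adjusted p = 0.00354).

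Of 19 tested genes of lipid handling and adipocyte progenitors, 9 were higher and 1 lower, with a median of 0.65. Besides G0s2 these were the transporter Abca8a (1.79), Hsd11b1, which reactivates glucocorticoids (1.43), the apolipoprotein Apod (1.26), the droplet coat protein Plin2 (1.26), the adipogenic factors Cebpa (1.25) and Cebpb (0.65), the lipase Lpl (1.19) and the fatty acid carrier Fabp4 (0.796). The single lower gene was Zfp521 (-1.02), a zinc finger repressor of adipogenesis. Lpl measured 1574 CPM (D0), 2839 (D10), 1933 (D24), 2710.2 (D56) and 1423 (D300) in Dpep1 cells, against 936, 2275, 864, 597 and 511 CPM in Pi16 cells. It was on the higher side in Dpep1 cells at each age, with a log2 fold change of 1.19 ± 0.22 (SE) and an edgeR adjusted p of 0.00889.

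Among 21 tested chemokine and cytokine genes 4 were higher (Cxcl14, Cxcl16 1.05, Cxcl10 1.04 and the eosinophil attractant Ccl11 0.84) and the scavenging receptor Ackr3 was lower (-2.03), with a median of 0.58. Cxcl12, the ligand that retains lymphocytes and progenitors, gave 1.39 and an adjusted p of 0.0524 with edgeR. Of 12 complement genes C4b (1.02) and C2 (0.79) were higher and the complement inhibitor Cd55 lower (-2.52), with a median of 0.403. The 25 Ifi200 and interferon genes gave 2 higher (AI607873 2.05 and Ifitm1 1.01) and 1 lower (Ifi27l2a -0.76), with a median of 0.47. Of 28 transcription factors Twist2 (0.96), Tcf4 (1.001) and Hic1 (0.66) were higher and Ebf2 (-0.74), Klf3 (-0.72) and Wt1 (-0.69) lower, with a median of 0.19.

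Of 20 stress and immediate-early genes, which digestion of a tissue is known to induce, Junb (0.83), Zfp36 (0.82) and Jun (0.73) were higher, with a median of 0.39. The 13 imprinted and neonatal growth genes gave 2 lower (Cdkn1c -0.704 and Grb10 -0.52), with a median of -0.204. None of 10 glucocorticoid response genes (median 0.16) or of 5 cell cycle genes (median 0.06) passed. Of the reticular markers, 7 could be tested and 2 were higher, Inmt and the adhesion molecule Vcam1 (1.47), with a median of 0.96. The 4 adjacent-tissue genes that could be tested gave a median of -0.06 and none passed.

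More genes separated Dpep1 cells from Ccl19-high reticular cells than from Pi16 cells. Ccl19-high cells held no Pecam1, at least 1 Col1a2, at least 3 Ccl19, at most 1 Dpep1 and at most 1 Pi16 UMI (2065 cells). The UMIs behind the sums differed, at D0 3536778 in Ccl19-high and 7240124 in Pi16 cells, and at D300 1634360 and 166490. The 2 counts of genes therefore do not measure distance. By the same fit 1637 of 9148 genes (17.9%) passed, 842 (9.2%) higher and 795 (8.69%) lower in Dpep1 cells, and the median log2 fold change over all genes was -0.01. Without D56 the count was 1026, and without the age block it was 673. Aldh1a2 was the gene with the largest fold among those named and measured 10.3 CPM (D0), 12.7 (D10), 89.2 (D24), 156 (D56) and 25.3 (D300) in Dpep1 cells, against 0.565, 0, 1.897, 2.45 and 0.612 CPM in Ccl19-high cells (log2 fold change 5.57, SE 0.29, edgeR adjusted p = 3.42e-07). Ccl21a, the second T-zone chemokine, measured 92.9 CPM (D0), 927 (D10), 4851 (D24), 4848 (D56) and 9245 (D300) in Dpep1 cells, against 8253, 39253, 59136, 58802 and 41885 CPM in Ccl19-high cells (log2 fold change -4.24, SE 0.49, edgeR adjusted p = 6.43e-05). At each age Dpep1 cells were on the higher side in Aldh1a2 and on the lower side in Ccl21a. Ccl19, which reticular cells make together with Ccl21a, separates the populations by definition. The Ccl21a call therefore describes the definition and lends no independent support.

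The other genes named on the higher side were Col15a1 (4.76), the transcription factor Ebf2 (4.43), Penk, the precursor of enkephalins (4.25), the membrane protein Tmeff2 (4.05) and Mnda (3.996). On the lower side they were the uncharacterised Gm2564 (-4.55), the tubulin-binding Stmn2 (-4.41), the desmosomal cadherin Dsc2 (-4.28), the kinase Prkcb (-4.11) and the secreted chaperone Clu (-3.69). Adjusted p by edgeR for these 10 genes ran from 2.67e-07 to 9.07e-06. Aldh1a2 and these 5 genes on the higher side are all among those the study listed for its clusters. Aldh1a2 and Mnda are label genes as well, and the folds and p-values of all these genes lend no independent support. Penk and Mnda did not separate Dpep1 from Pi16 cells, at log2 fold changes of 0.03 and 0.58, and Tmeff2 did (0.67, edgeR adjusted p = 0.0475).

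By groups, 31 of 39 interstitial matrix genes were higher in Dpep1 cells than in Ccl19-high cells and 2 lower (median 1.34), and 12 of 17 basement membrane genes were higher and 1 lower (median 1.04). Lipid handling genes gave 14 higher and 1 lower of 21 (median 1.02), imprinted genes 13 higher and 1 lower of 14 (median 1.37) and Pi16 cell markers 7 higher of 7. Chemokines and cytokines gave 2 higher and 16 lower of 26 (median -0.91), complement genes 7 lower of 12 (median -0.57) and reticular markers 1 higher and 8 lower of 9. The reticular markers, with Ccl21a also among the chemokines, accompany the Ccl19 that defines the comparison cells and lend no independent support. The retinoic acid list gave 6 higher and 2 lower of 16 (median 0.45), the growth factors 17 and 9 of 39, the Ifi200 and interferon genes 11 and 4 of 25 and the transcription factors 14 and 2 of 30.

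Dpep1 cells were not uniform, and the genes given here differed between cells with few and many Dpep1 UMIs. The median was 2, 2, 3, 5 and 4 Dpep1 UMIs per cell in age order with maxima of 5, 9, 24, 46 and 81 UMIs, and 65.2, 53.5, 37.1, 23.1 and 32.03% of the cells sat at the limit of 2. At D56, cells that met the other limits were split into classes of 0, 1, 2, 3, 4 to 9 and 10 or more Dpep1 UMIs, holding 269, 140, 58, 35, 89 and 69 cells. Aldh1a2 measured 8.59, 31.7, 52.2, 15.7, 158 and 260.2 CPM in these classes, Gsn 11999, 15603, 16737.5, 35375.5, 42511 and 51397 CPM, and Col15a1 32.8, 86.1, 65.3, 268, 392 and 578 CPM. The 3 genes were highest in the classes of 4 or more. The 9 reticular markers other than Ccl19 (Ccl21a, Il7, Inmt, Grem1, Il33, Bst1, Cxcl12, Vcam1 and Icam1) were each lower at 10 or more Dpep1 UMIs than at 0. Cxcl12 measured 7494, 7255, 7920, 5865, 1695 and 843 CPM and Vcam1 1119, 1083, 786, 860.4, 463 and 395 CPM, while Icam1 measured 508, 491, 307, 236, 282 and 282 CPM and was lowest at 3. Enpp2, which makes lysophosphatidic acid, is outside that list and was chosen after its values were seen, and measured 2037, 2045, 1867, 849.9, 408 and 295 CPM. Inmt, at 1767, 1915, 2141, 2224, 587 and 99.7 CPM, was highest at 3 and lowest at 10 or more. Just inside and just outside the limit, cells with 2 and with 1 Dpep1 UMI held 52.2 against 31.7 CPM Aldh1a2, 16737.5 against 15603 CPM Gsn, 65.3 against 86.1 CPM Col15a1, 7920 against 7255 CPM Cxcl12, 1867 against 2045 CPM Enpp2 and 2141 against 1915 CPM Inmt.

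**Figure D4:**
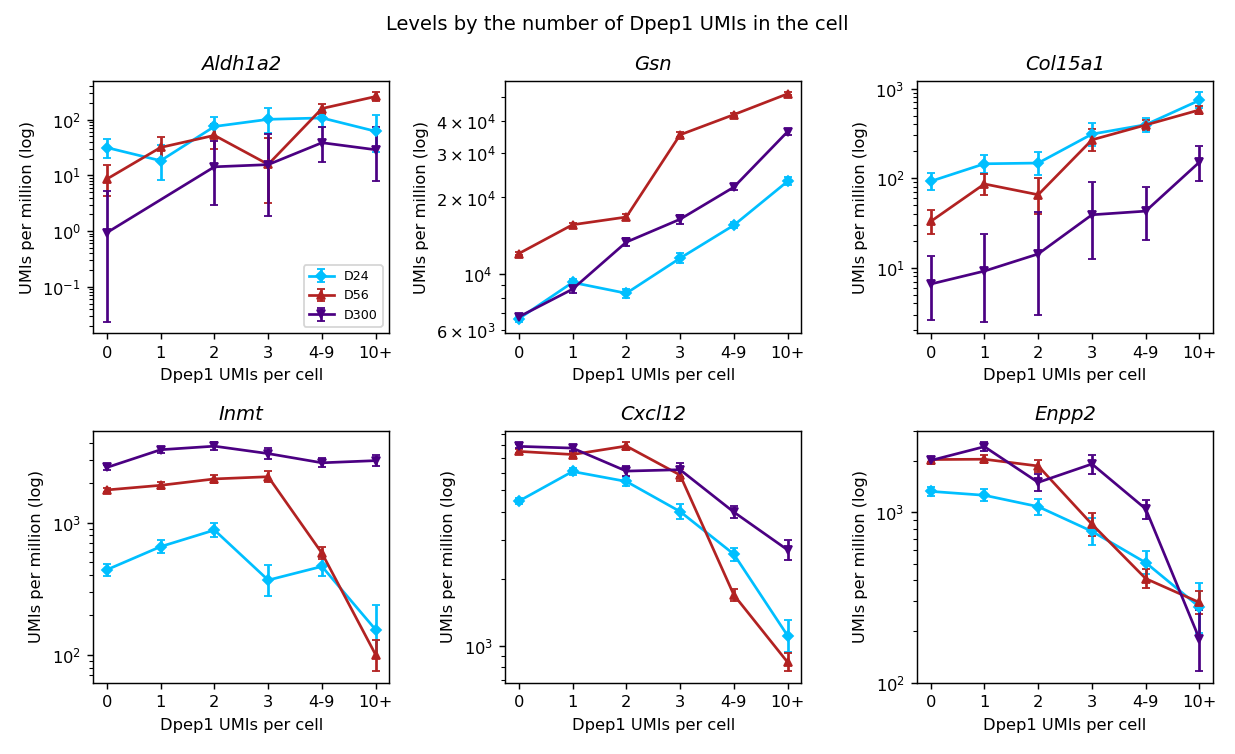
Levels of Aldh1a2, Gsn, Col15a1, Inmt, Cxcl12 and Enpp2 in CPM by the number of Dpep1 UMIs in a cell (0, 1, 2, 3, 4 to 9, 10 or more) at D24, D56 and D300; bars are exact 95% Poisson intervals of the summed UMIs. At D56 Aldh1a2 went from 8.59 CPM at 0 Dpep1 UMIs to 260.2 CPM at 10 or more, and Cxcl12 from 7494 to 843 CPM.

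Dpep1 cells without a Cd34 UMI were set beside those with one, as a description, since the split reads the same cells. At D56 the 49 cells without Cd34 held 15805 CPM Ccl21a against 2860.1 CPM in the 202 with it, 5614 against 2618 CPM Cxcl12 and 1796 against 499 CPM Enpp2. The same cells held 52.2 against 174 CPM Aldh1a2, 20723 against 43225 CPM Gsn and 181 against 413 CPM Col15a1. At D300, 88 of 153 Dpep1 cells had no Cd34 UMI, and those held 12749 against 4785 CPM Ccl21a and 15560.1 against 28442 CPM Gsn. Requiring Cd34 in both populations left 349 genes between Dpep1 and Pi16 cells. Within the D56 members, 75 of 251 cells held Aldh1a2 and 68 held both Aldh1a2 and Mnda, while 30 held none of Aldh1a2, Mnda and Cd34, which at this depth does not show that the genes were silent.

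Cells with at least 2 UMIs of both Dpep1 and Pi16 were counted apart (68, 56, 180, 415 and 89 in age order). Cxcl14 measured 0, 7.996, 45.3, 73.99 and 19.4 CPM in them, below the Dpep1 cells at every age and above the Pi16 cells from D10 on. Dpp4 measured 66.3, 55.97, 56.5, 94.2 and 143 CPM and Tmem100 146, 179.9, 205, 353 and 266 CPM, levels nearer to those of Pi16 cells. Aldh1a2 measured 9.95, 7.996, 114, 64.1 and 19.4 CPM. At D24 that was above both single populations, and at D56 it lay between them.

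Over age, Dpep1 cells were compared with the adult D56 cells as ratios of CPM, and a gene counted as different when it differed at least 2-fold and held at least 50 CPM and 20 UMIs at the higher age. At D0, 271 of 2495 such genes (10.9%) were higher and 472 (18.9%) lower than at D56. With 193768 UMIs at D0 the minimum of 20 UMIs asked for more than 50 CPM, whereas at D56, with 1620149 UMIs, 50 CPM was the limit. Genes could therefore count as lower at D0 more easily than as higher, in the list counts and the alternatives too. With 20 CPM in place of 50 the D0 counts were 271 higher and 1085 lower. At D10 they were 284 (8.61%) and 294 (8.91%) of 3299, at D24 111 (3.59%) and 97 (3.14%) of 3091, and at D300 122 (4.06%) and 213 (7.09%) of 3005. Pi16 cells gave 384 and 376 of 3268 at D0, 239 and 230 of 3220 at D10, 151 and 135 of 3105 at D24 and 29 and 211 of 2198 at D300. As shares these were 11.8% and 11.5%, 7.42% and 7.14%, 4.86% and 4.35%, and 1.32% and 9.60%. At D300 only 32 Pi16 cells and 166490 UMIs stood behind the values. The split depended on the scaling and on the gate. With at least 3 Dpep1 UMIs it was 122 higher and 655 lower at D0 and 199 higher and 333 lower at D10, and with gates set on thinned cells 102 higher and 560 lower and 152 higher and 350 lower. With TMM factors in place of CPM it was 182 higher and 620 lower at D0, 165 higher and 397 lower at D10, 102 higher and 111 lower at D24 and 162 higher and 172 lower at D300, the median of all genes moving from -0.08, 0.19, 0.09 and -0.21 to -0.28, -0.04, 0.03 and -0.09. With each age a single sample, none of these ratios was tested.

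The newborn Dpep1 cells held imprinted and fetal growth genes together with markers of adjacent-tissue fibroblasts. Dlk1, an imprinted inhibitor of adipogenesis, measured 6962 CPM at D0, 929 at D10, 252 at D24 and 1.85 at D56. H19, an imprinted RNA gene, measured 3582 CPM at D0, 1106 at D10 and 76.2 at D24 and was at 0 at D56, which against a floor of 3 UMIs is a log2 difference of at least 10.92 at D0. Mfap4, a microfibril protein and an adjacent-tissue marker, stood at 2586 CPM at D0 and 7.41 CPM at D56. The 6 adjacent-tissue markers gave 6 higher and 0 lower of 6 (median 5.45) at D0 and 4 higher and 0 lower of 5 (median 4.301) at D10, and Igf2 is in both lists. The study set cells of adjacent tissue aside before its final clusters, whereas the rule for Dpep1 cells had no such limit, and the part of these cells in the group was not tested. Of 14 imprinted and neonatal growth genes with enough counts, 13 were higher at D0 (median log2 ratio 3.41, beside -0.08 over all genes), 8 of 12 at D10 and 3 of 10 at D24. Pi16 cells gave 14 of 15, 11 of 14 and 4 of 10.

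The genes with the largest difference on the lower side at D0 were the metallothionein Mt2 (-6.37 [-8.65 to -4.82], log2 ratio with its interval), Inmt (-5.88 [-8.16 to -4.33]) and Ccl21a (-5.71 [-6.46 to -5.04]). At D10 they were Mt2 (-5.34 [-6.18 to -4.62]), the cytokine Il6 (-5.29 [-6.92 to -4.06]) and the predicted gene Gm8797 (-4.77 [-5.68 to -3.99]). On the higher side at D10 were Dlk1, H19 and Mfap4 (7.16 [6.35 to 8.13]). When cells were thinned before gating, the Il6 ratio at D10 was -0.16 and the Mt2 ratios were -2.73 at D0 and -2.44 at D10, while that of Mfap4 at D0 was 7.57 in place of 8.45. With at least 3 Dpep1 UMIs the Gm8797 ratio at D10 was -5.81 and the Ccl21a ratio at D0 was -4.93, and with Cd34 required the latter was -4.94. Gsn was at -3.57 [-3.68 to -3.45], -2.65 [-2.698 to -2.59], -1.55 [-1.58 to -1.53] and -0.91 [-0.93 to -0.88] at D0, D10, D24 and D300, and Aldh1a2 at -3.91 [-6.97 to -2.05], -3.62 [-5.08 to -2.48], -0.802 [-1.18 to -0.44] and -2.62 [-3.398 to -1.93]. In Pi16 cells the Aldh1a2 ratios were -2.31 [-2.998 to -1.64], -0.89 [-2.17 to 0.19], 1.28 [0.76 to 1.81] and 0.18 [-1.75 to 1.62].

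Immune effector genes were low in newborn Dpep1 cells. Over all genes, 18.9% were lower at D0 and 8.91% at D10 in Dpep1 cells, and 11.5% and 7.14% in Pi16 cells. Complement genes gave 0 higher and 11 lower of 11 (median -2.49) at D0, where Pi16 cells gave 0 and 10 of 11 (median -2.81), and 0 higher and 5 lower of 11 (median -0.98) at D10, where they gave 0 and 7 of 11 (median -1.63). C3, the central complement protein, measured 56.8, 1195, 2324, 2685 and 2321 CPM in age order. Chemokines and cytokines gave 0 higher and 14 lower of 16 (median -1.95) at D0 and 3 higher and 12 lower of 18 (median -1.73) at D10, the 3 higher genes at D10 being Cxcl13, Il33 and Tnfsf11. Cxcl13 and Tnfsf11 are also markers of organizer cells, and the 4 organizer markers summed to 15.5, 196, 159, 59.9 and 85.8 CPM in Dpep1 cells, 39.1, 47.2, 32.5, 92.5 and 18.02 CPM in Pi16 cells and 971, 552, 274, 228 and 171 CPM in Ccl19-high cells, in age order, whose part in this was not tested. Pi16 cells gave 0 and 11 of 14 (median -1.98) and 0 and 12 of 14 (median -1.57). At D24 the chemokine list was at 1 higher and 0 lower of 16 (median 0.03) in Dpep1 cells and 0 and 5 of 15 (median -0.75) in Pi16 cells, and at D300 at 3 higher and 2 lower of 19 (median 0.33) and 0 and 8 of 14 (median -1.08). Whether the populations differed in this was not tested.

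Ifi200 family and interferon genes gave 1 higher and 12 lower of 16 (median -1.46) at D0, 0 higher and 9 lower of 19 (median -0.85) at D10, 0 higher and 9 lower of 17 (median -1.06) at D24 and 2 higher and 3 lower of 20 (median -0.04) at D300. Mnda was among the lower ones at every age, but at D300 its log2 ratio of -1.63 [-1.999 to -1.27] became -0.91 with Cd34 required and -0.83 with thinning before gating, less than the 2-fold limit. Pi16 cells gave 0 and 10 of 14 (median -1.37) at D0, 0 and 7 of 14 (median -1.03) at D10, 1 and 4 of 14 (median 0.21) at D24 and 0 and 1 of 12 (median -0.51) at D300. Lipid handling genes were at 2 higher and 11 lower of 15 (median -1.97) at D0 and 1 higher and 9 lower of 14 (median -1.24) at D10, with Dlk1 on the higher side and G0s2, Plin2, Hsd11b1 and Abca8a on the lower side at both ages, and Pi16 cells gave 2 and 9 of 13 (median -1.36) and 2 and 7 of 12 (median -1.22). G0s2 and Abca8a were lower also at D300. Glucocorticoid response genes were at 0 higher and 7 lower of 8 (median -2.32) at D0 and 0 higher and 6 lower of 8 (median -1.64) at D10, Mt1 and Mt2 among them, and at 0 and 6 of 8 (median -1.59) and 0 and 4 of 8 (median -1.24) in Pi16 cells.

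Stress and immediate-early genes moved with the ages as well. They gave 0 higher and 15 lower of 20 (median -1.79) at D0 and 0 higher and 15 lower of 20 (median -1.73) at D10, against 0 and 7 of 20 (median -0.76) and 0 and 11 of 20 (median -1.07) in Pi16 cells. At D24, 6 chaperone genes were higher (Hspa1b, Hsph1, Bag3, Hsp90aa1, Hspb1 and Hspa8), with Hspa1b at 1.98 [1.82 to 2.14], and 1 gene was lower. The list median was -0.36 there, beside 0.09 over all genes, and Pi16 cells gave 0 and 2 of 20 (median -0.62). At D300 the list gave 2 higher and 0 lower of 20 (median 0.44), against 2 and 3 of 20 (median 0.16) in Pi16 cells. These genes respond to tissue digestion, and their part in the other differences between ages was not tested.

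The leukotriene list gave 0 higher and 5 lower of 8 (median -2.36) at D0 (Ggt5, Ptgs2, Ptges, Hpgd and Ptgir), where 18.9% of all genes were lower, and 0 higher and 3 lower of 8 (median -0.73) at D10. Pi16 cells gave 1 and 3 of 7 (median -0.95) and 1 and 3 of 6 (median -0.89). Ggt5 was at 15.5 CPM at D0 and 225 CPM at D56, a log2 ratio of -3.86 [-6.15 to -2.305]. Ltc4s was higher at D24 and at D300, where it measured 98.4 CPM against 26.5 CPM at D56 (1.89 [1.32 to 2.47]). Of the retinoic acid genes, Adh1 was lower at D0 (-2.100 [-3.56 to -0.95]) and Rdh10 was higher at D24 (1.15 [0.59 to 1.71]).

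Most basement membrane genes of Dpep1 cells were lower at D300 than at D56. Of 15 with enough counts, 12 were lower than at D56 and none higher, with a median log2 ratio of -1.77 beside -0.21 over all genes. Pi16 cells, with 32 cells at D300, gave 0 and 3 of 14 (median -0.24). The sum over the whole list went from D56 to D300 from 7470.3 to 2431 CPM in Dpep1 cells, from 7350.1 to 4553 CPM in Pi16 cells, from 8277 to 4353 CPM in cells with both genes and from 3013 to 1506 CPM in Ccl19-high cells, and was lower at D300 in all 4 populations. Over the same ages the sum of the reticular markers in Dpep1 cells went from 9958 to 19478 CPM, and its part in this was not tested. Col15a1 was at 54.8 CPM at D300 and 378 CPM at D56 (-2.78 [-3.29 to -2.32]), followed by Nid2 (-2.65 [-3.81 to -1.68]), Col4a2 (-2.02 [-2.45 to -1.61]) and Fn1 (-1.98 [-2.28 to -1.698]), with Lamb1, Sparc, Hspg2, Col4a1, Lama4, Lamc1, Nid1 and Smoc2 also lower. The other 3 gave -0.45 [-0.86 to -0.06] (Lama2), -0.09 [-0.37 to 0.19] (Vwa1) and -0.03 [-0.55 to 0.47] (Lamb2). In the Dpep1 cells with Cd34, 9 of 15 were lower (median -1.40), and with TMM scaling 12 were. Interstitial matrix genes gave 2 higher and 16 lower of 36 (median -0.61), with Fmod and Mmp3 higher and Col1a1, Col3a1 and Col6a1 among the lower, and 0 and 8 of 36 (median -0.204) in Pi16 cells. The difference between the populations was not tested.

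**Figure D5:**
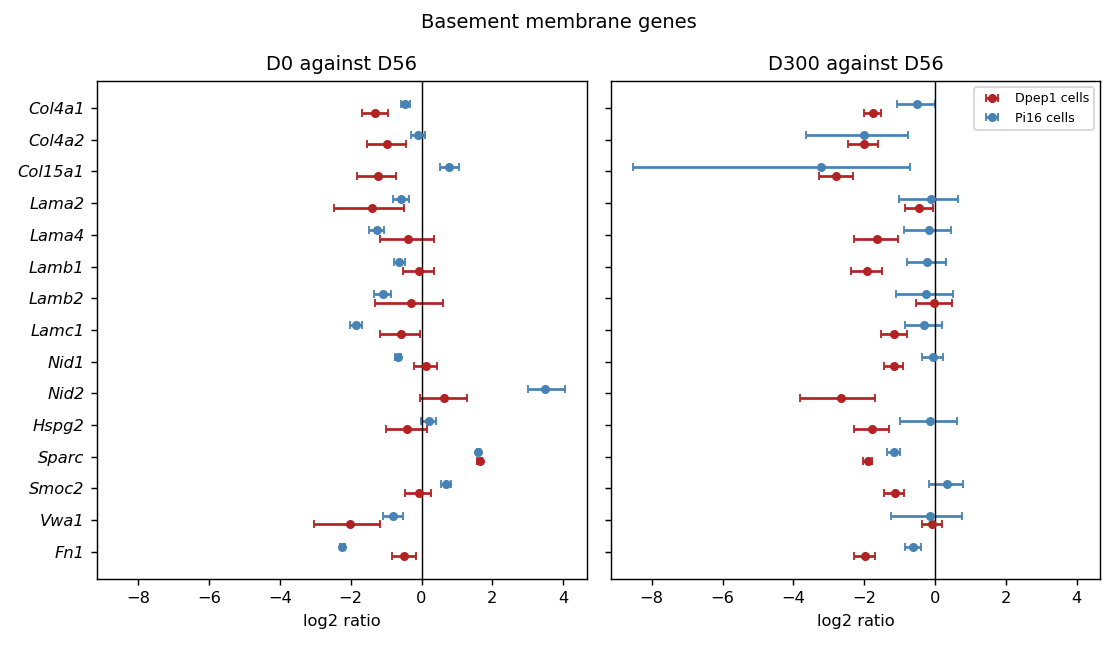
Log2 ratio to D56 of 15 basement membrane genes at D0 (left) and D300 (right) in Dpep1 cells (red) and Pi16 cells (blue), with exact 95% intervals for counting error. At D300, 12 of the 15 genes of Dpep1 cells lay at or below a 2-fold lower level, whereas at D0 4 did and Sparc was higher.

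The genes with the largest differences at D24 were Dlk1 (7.09 [5.53 to 9.38]), H19 and Sycn on the higher side and the carboxylesterase Ces1d (-3.77 [-5.104 to -2.69]), the secreted Fam150b (-3.66 [-4.999 to -2.58]) and Gm8797 (-3.47 [-3.86 to -3.104]) on the lower side. Sycn encodes a zymogen granule protein of the pancreas and was highest where the pancreatic acinar sum given above was high; its source was not tested. At D300 they were Gm42726, annotated as antisense, (91.4 CPM against 0 at D56, a log2 difference of at least 5.63), the mitochondrial Chchd10 (4.36 [3.46 to 5.41]) and Gm10036, a processed pseudogene whose reads may belong to its parent gene (3.26 [2.596 to 3.99]), on the higher side. On the lower side they were the pentraxin Ptx3 (-4.97 [-6.29 to -3.91]), C1qtnf6, a C1q-related secreted protein (-3.87 [-6.17 to -2.28]), and Gm8797 (-3.66 [-4.14 to -3.22]). Gm8797 was lower than at D56 in Pi16 cells too, at -3.67 [-4.67 to -2.82] at D300. With thinning before gating the Ptx3 ratio at D300 was -1.73, and at D24 the ratios of Fam150b and Gm8797 were -5.54 and -4.13.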

How the data were processed

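Mesenteric lymph node CD45-CD24- cells were profiled with the 10x 3' v2 kit at 5 ages in 7 labelled samples. The authors deposited 1 matrix of raw UMI counts for 27998 genes and 17692 cells, which per the submitters' processing notes came from Cell Ranger 2.0.0 with STAR on mm10 and Seurat 2.3.3, and all values were whole numbers. The matrix carries no batch correction or scaling. Column names give the age only, so each age was 1 sample, and the study's text and the labels differ on the number of D300 libraries. The members and gene lists were chosen with earlier results of these data known.

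UMIs were summed per population and age. Populations were compared with edgeR 4.0.16 (TMM, filterByExpr, quasi-likelihood, age as a block, 2-sided, Benjamini-Hochberg over all genes tested, threshold 0.05) in R 4.3.3, with DESeq2 1.42.0 as an alternative. Both populations of an age come from the same sample, so that age paired the sums by design. The p-values measure the spread of the difference over 5 ages, not over animals. Ages were compared without a test, as CPM ratios with exact 95% intervals. The fit was tested on simulated counts. Named were, against Pi16 cells, the 12 highest and 8 lowest, and against Ccl19-high cells the 6 highest and 6 lowest, fold changes among called genes with the same direction in every age and a mean of at least 50 CPM in the higher population; at each age the 3 largest differences each way; and, per list, up to 4 members each way, with uncalled members by value and further members by name only. A named gene and 1 list member are not reported here. A gene at 0 was compared against a floor of 3 UMIs. Gene positions came from GENCODE vM21, which holds 26646 of the 27998 symbols (95.2%). Alternatives were other normalizations, filters, gate limits, thinning to 2000 UMIs, leaving out cells or single ages, and a Pi16 definition with the members' limits, the last chosen after seeing the data.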

Additional observations from a re-analysis of the deposited data

Results flagged for a closer look

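Gsn differed in direction between ages when Dpep1 cells were set beside Pi16 cells. Its log2 ratio was -0.32 at D10, where the Dpep1 cells were lower, and 0.65 at D24, 0.87 at D56 and 0.21 at D300, where they were higher, each with a counting interval on 1 side of 0. With 1 sample per age and population, the difference between the ages was not tested.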

How the results depend on the processing

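Against Pi16 cells the 421 genes became 907 without the filter on low counts, 240 with Cd34 required in neither population, 312 with DESeq2 (300 of them shared), 333 without the cells with Y-linked transcripts, and 542 (392 shared) when the Pi16 cells met the limits of the Dpep1 cells, an alternative added after seeing the data. Leaving out 1 age at a time gave 209 to 533 genes against Pi16 cells and 1026 to 1539 against Ccl19-high cells. Without the replicate block for age, 31 genes passed against Pi16 cells and 673 against Ccl19-high cells, 672 of them among the 1637. Cxcl14, Plk4, Inmt, Sept4, Steap4, Rgs16, Vtn, Efhd1 and Aldh1a2 did not pass against Pi16 cells then, nor Gm2564, Ccl21a and Gsn against Ccl19-high cells. The 2 libraries of D56 and of D300 carry no number in the cell names, so that age is the only pairing. Shares of stromal cells in age order were 0.254%, 2.304%, 8.32%, 7.92% and 11.3% with at least 3 Dpep1 UMIs, 4.77%, 12.8%, 21.8%, 16.04% and 26.6% with at least 1, 0.306%, 1.61%, 6.62%, 10.03% and 13.5% after thinning, and 10.3%, 8.29% and 7.03% at D24, D56 and D300 with Cd34. Without the cells with Y-linked transcripts the D10 share was 6.35%. With a minimum of 20 CPM in place of 50, 1356, 902, 496 and 675 genes differed from D56 at D0, D10, D24 and D300, against 743, 578, 208 and 335. No named gene changed the sign of its value under any alternative run for it, but counts did change sides: against Pi16 cells, 217 higher and 204 lower became 412 and 495 without the filter on low counts and 103 and 121 without D24, and at D24 against D56, 111 higher and 97 lower became 102 and 111 with TMM and 240 and 256 at 20 CPM. For single genes, 390 values against Pi16 cells stayed on their side of the threshold, 17 lost it and 2 gained it, and between ages 32 of 245 values moved beyond their counting interval. At D0, 23 cells and 193768 UMIs limit every value.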

Other observations

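A Cdk1 UMI was found in 6 of the 23 D0 Dpep1 cells (26.1%, with an exact 95% interval of 10.2 to 48.4) and in 4 of them after thinning to 2000 UMIs. Over the ages the thinned share was 17.4, 2.82, 1.52, 0.797 and 0% in Dpep1 cells, 5.66, 2.25, 2.89, 0.798 and 0% in Pi16 cells, 13.9, 5.78, 4, 2.06 and 0.373% in Ccl19-high cells and 9.84, 9.596, 3.85, 1.16 and 0.811% in endothelial cells, in age order. No population free of dividing cells was at hand as a background, so that the Cdk1 share is not read as cycling.

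Agtr2, the type 2 angiotensin receptor and a marker of adjacent-tissue fibroblasts, was found in 82.6, 33.8, 2.27, 0 and 0% of Dpep1 cells, in age order, and in 56.5, 15.5, 0.758, 0 and 0% after thinning. Pi16 cells gave 78.5, 37.1, 6.36, 1.06 and 0%, and endothelial cells 21.3, 1.52, 0, 0 and 0% as background. Hsd11b1, which reactivates glucocorticoids, was found in 0, 4.23, 24.2, 37.5 and 37.3% of Dpep1 cells and in 0, 1.41, 14.4, 14.7 and 21.7% after thinning, where D24 and D56 were close. Endothelial cells gave 3.28, 0.505, 1.78, 1.701 and 1.19%.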
